A study of Mus musculus with 12 samples.

Results

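Cytochalasin D given alone was compared with no treatment in mouse bone marrow-derived mesenchymal stem cells (BMSCs), stromal cells of the marrow that stick to plastic and can form fat, bone and cartilage. The comparison used every library that carried 1 of these labels, which made 6 of the 12 libraries of the series. In the 3 CytoD libraries the cells had received cytochalasin D for 24 h, and in the 3 Ctrl libraries they had received nothing. All cells were plated at 10000 cells per cm2 and grown for 1 day before the treatment, in a medium with 10% foetal bovine serum. Strain, passage, dose and vehicle are not given in the labels, and nothing says whether the 3 libraries of a group came from separate cultures or animals, so the p-values below rest on the spread between libraries of a group, possibly a technical one. The other 6 libraries of the series were 3 of cells given CK666, an inhibitor of the branched-filament nucleator Arp2/3, and 3 of cells given both compounds. RNA was sequenced and counted per gene, and levels are given as CPM, the counts of a gene relative to all gene counts of its library after edgeR's scaling by the trimmed mean of M-values.

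Cytochalasin D is a fungal metabolite that caps the fast-growing end of actin filaments, so that filaments shorten, stress fibres are lost and adherent cells round up. Signals that start at integrin adhesions depend on tension in those fibres, and several transcription regulators move between cytoplasm and nucleus with the state of actin. Genes of fat and bone differentiation and of the actin cytoskeleton are the usual readouts of such a treatment. The account below takes the other gene groups: the machinery of protein synthesis, chromatin and DNA repair, innate defence, ligands with their receptors, signalling feedback, adhesion, enzymes and transcription factors.

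The 6 libraries held 48930210, 57798166 and 55623846 gene counts in CytoD and 51941602, 49657966 and 56565900 gene counts in Ctrl, all of them even numbers in every gene row. A count of 3 corresponded to 0.0519 to 0.0613 CPM. CytoD libraries had 15621 to 15666 gene rows above 0 and Ctrl libraries 14983 to 15102, and reads outside gene rows made up 12.4% to 13.7% in CytoD and 10.9% to 11.5% in Ctrl. The ribosomal RNA row Rn45s took 4.1%, 2% and 4.52% of the counts of the 3 CytoD libraries and 2.45%, 2.5% and 2.9% of those of the 3 Ctrl libraries. The first principal component of the 6 libraries held 68.3% of the variance and separated the groups. Marrow stromal markers were present, with 14 of 15 tested and summed levels of 31218 to 33006 CPM in CytoD and 25608 to 27962 CPM in Ctrl. Of these markers 5 were called higher and 6 lower, with a median log2 fold change of -0.11, and Cxcl12 alone gained 9721 CPM on average, so that the others together summed lower in CytoD. Of 15 macrophage and myeloid markers 5 were tested, with sums of 12.1 to 13.2 CPM in CytoD and 9.77 to 10.8 CPM in Ctrl, and 8 of them (Emr1, C1qa, C1qb, C1qc, Itgam, Ptprc, Sfpi1 and Tyrobp) were at no more than 3 counts in every library. Endothelial markers summed to 7.52 to 7.76 CPM in CytoD and 5.82 to 7.03 CPM in Ctrl, and erythroid, lymphoid and megakaryocyte markers to 8.55 to 8.99 CPM in CytoD and 8.58 to 9.57 CPM in Ctrl.

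Of 13534 genes with enough counts, 5136 (37.9%) passed edgeR's quasi-likelihood test at a Benjamini-Hochberg adjusted p under 0.05. Genes called higher in CytoD numbered 2580 (19.1% of those tested) and genes called lower 2556 (18.9%). Most differences were small: the median size of the log2 fold change among called genes was 0.53, and 678 genes were at least 2-fold higher and 469 at least 2-fold lower. Among the strongest changes the balance shifted towards gains, with 202 genes at least 4-fold higher and 49 at least 4-fold lower. CytoD and Ctrl libraries did not overlap in 5103 of the called genes, read against 61.6% of all genes tested. A lack of overlap in a called gene named below therefore adds almost nothing to its call. In bulk RNA, a change in the number of cells that express a gene and a change in RNA per cell cannot be told apart. Leaving out 1 library at a time lowered the counts to between 1840 and 2203 higher and between 1965 and 2283 lower, and 3335 genes were called in the same direction each time.

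Direction went with level. Genes were placed in 5 bins of equal size by mean level. In the lowest bin (0.0459 to 2.25 CPM) 21.1% were called higher and 5.76% lower, and in the highest bin (80.8 to 30230 CPM) 13.4% were called higher and 30.3% lower. The median log2 fold change stepped down through the bins, at 0.40 in the lowest through 0.10, 0.01 and -0.03 to -0.09 in the highest. A gene of the lowest bin could enter the test through the group where it was high, so its gains are a description of the genes that passed. The larger number of rows above 0 in CytoD, its larger share of reads outside gene rows and its larger share of Rn45s in libraries 1 and 3 went in the same direction as these gains at low level, and their part in the pattern was not tested.

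**Figure D1:**
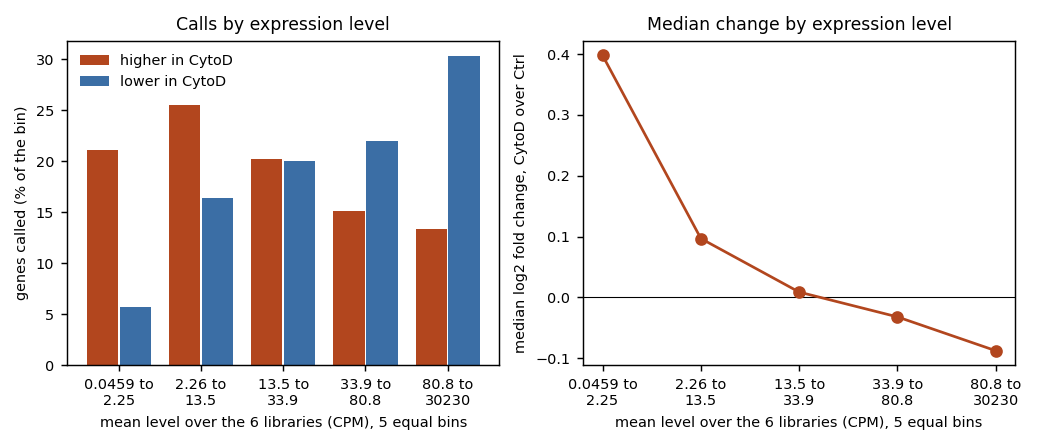
Percent of tested genes called higher or lower in CytoD than in Ctrl (left) and median log2 fold change, CytoD over Ctrl (right), in 5 equal bins of 13534 genes by mean level in CPM (edgeR quasi-likelihood test, adjusted p under 0.05). Calls of higher genes fall to 13.4% and calls of lower genes climb to 30.3% in the bin with the highest levels.

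4 genes had at least 30 counts in each CytoD library and no more than 3 counts in each Ctrl library. No gene met the opposite pattern at these cutoffs. Magel2, described below, came close to it, with 0.0822, 0 and 0 CPM in CytoD and 2.77, 2.24 and 2.44 CPM in Ctrl. Tshr, the receptor for thyroid-stimulating hormone, had 64, 84 and 110 counts in CytoD and 0, 2 and 0 counts in Ctrl. S100a8, a calcium-binding protein best known from neutrophils, had 44, 102 and 94 counts in CytoD and 2, 0 and 2 in Ctrl. Adcyap1r1, the receptor for the neuropeptide PACAP, had 56, 94 and 70 counts in CytoD and 2, 0 and 2 in Ctrl. These genes were all but silent in untreated cells and weakly present in each treated library. B3galt2, a galactosyltransferase, had 40, 62 and 66 counts in CytoD and 2, 2 and 2 in Ctrl, but its row overlaps that of Cdc73 and the strand setting of the counting is not given in the sources used here.

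Other large gains also concerned genes of low level. Tlr8 (chromosome X, 167242732 to 167263788), an endosomal receptor for single-stranded RNA, had 12.5, 14.7 and 14.8 CPM in CytoD and 0.652, 0.592 and 0.676 CPM in Ctrl, a 21.8-fold gain. Ffar2, a receptor for short-chain fatty acids, had 1.36, 2.15 and 2.2 CPM in CytoD and 0.0814, 0 and 0.0751 CPM in Ctrl. Both receptors are known from immune cells, and the macrophage markers C1qa, Itgam, Ptprc and Tyrobp were at no more than 3 counts in all 6 libraries. Genes known from immune cells also stood among the 10 most lowered genes. Cd300lb averaged 1.4 CPM in CytoD and 8.66 CPM in Ctrl, Lcp1 0.202 and 1.18 CPM, and Sh2d1b1 0.12 and 1.09 CPM. Low-level genes of this kind thus changed in both directions. Lyz2, a lysozyme of myeloid cells that was the only macrophage marker called, had 6.29, 5.23 and 4.48 CPM in CytoD and 1.95, 1.27 and 1.47 CPM in Ctrl.

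Among called genes without overlap of libraries and with a mean of at least 1 CPM in Ctrl, the largest proportional loss was in Magel2 (chromosome 7, 62376979 to 62381640), an imprinted gene whose protein acts in endosomal protein sorting. It had 0.0822, 0 and 0 CPM in CytoD and 2.77, 2.24 and 2.44 CPM in Ctrl, so that it was close to undetected in every treated library. Krt19, a keratin of simple epithelia, fell 7.87-fold, with 1.07, 1.34 and 1.01 CPM in CytoD and 8.31, 8.97 and 9.77 CPM in Ctrl. Cyp11b1, an adrenal steroid hydroxylase, had 0.164, 0.168 and 0.217 CPM in CytoD and 1.18, 1.01 and 1.2 CPM in Ctrl. All 3 genes stood at low level in untreated cells and lower still after treatment. By absolute level the largest gain was in Cxcl12, the chemokine by which marrow stroma holds blood stem cells, with 19869.5, 17072 and 17214 CPM in CytoD and 10783, 7116 and 7094 CPM in Ctrl, a 2.17-fold gain. After Cxcl12 and the fat gene Lpl came 2 collagen VI chains and an amyloid precursor-like protein. Col6a1 had 4264, 4232 and 4190.4 CPM in CytoD and 2941, 2611 and 2748 CPM in Ctrl, a 1.53-fold gain, and Col6a2 rose 1.55-fold. Aplp2 had 1839, 1925 and 1947 CPM in CytoD and 1129, 1131 and 1062 CPM in Ctrl. The largest absolute losses were in 2 secreted adhesive glycoproteins, Thbs1 with 9293, 11066 and 10876 CPM in CytoD and 15685, 18556 and 17826 CPM in Ctrl, and Fn1 with 8228, 8301 and 8144 CPM in CytoD and 12646, 14668 and 13489 CPM in Ctrl.

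50 lists of genes with a shared role were then read against the calls over all genes, of which 19.1% were higher and 18.9% lower. These shares were not matched to the level of the members. In the bin of highest level 13.4% were higher and 30.3% lower, and in the lowest bin 21.1% were higher and 5.76% lower. The part of level in the calls of a list was not tested. Lists with mostly lower calls included those of DNA repair, nucleotide synthesis, tRNA charging, ribosome assembly, nuclear pores and the secretory pathway. Lists with mostly higher calls included those of acute phase proteins, immunity-related GTPases, cytokines, antigen presentation, complement and xenobiotic enzymes. They also included clock genes, retinoid genes and long noncoding RNAs. The share called was 33.3% in cytokines and 41.2% in antigen presentation, beside 37.9% over all genes. Lists of receptors, guidance molecules and signalling regulators had calls in both directions, and there the single members carried the result.

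**Figure D2:**
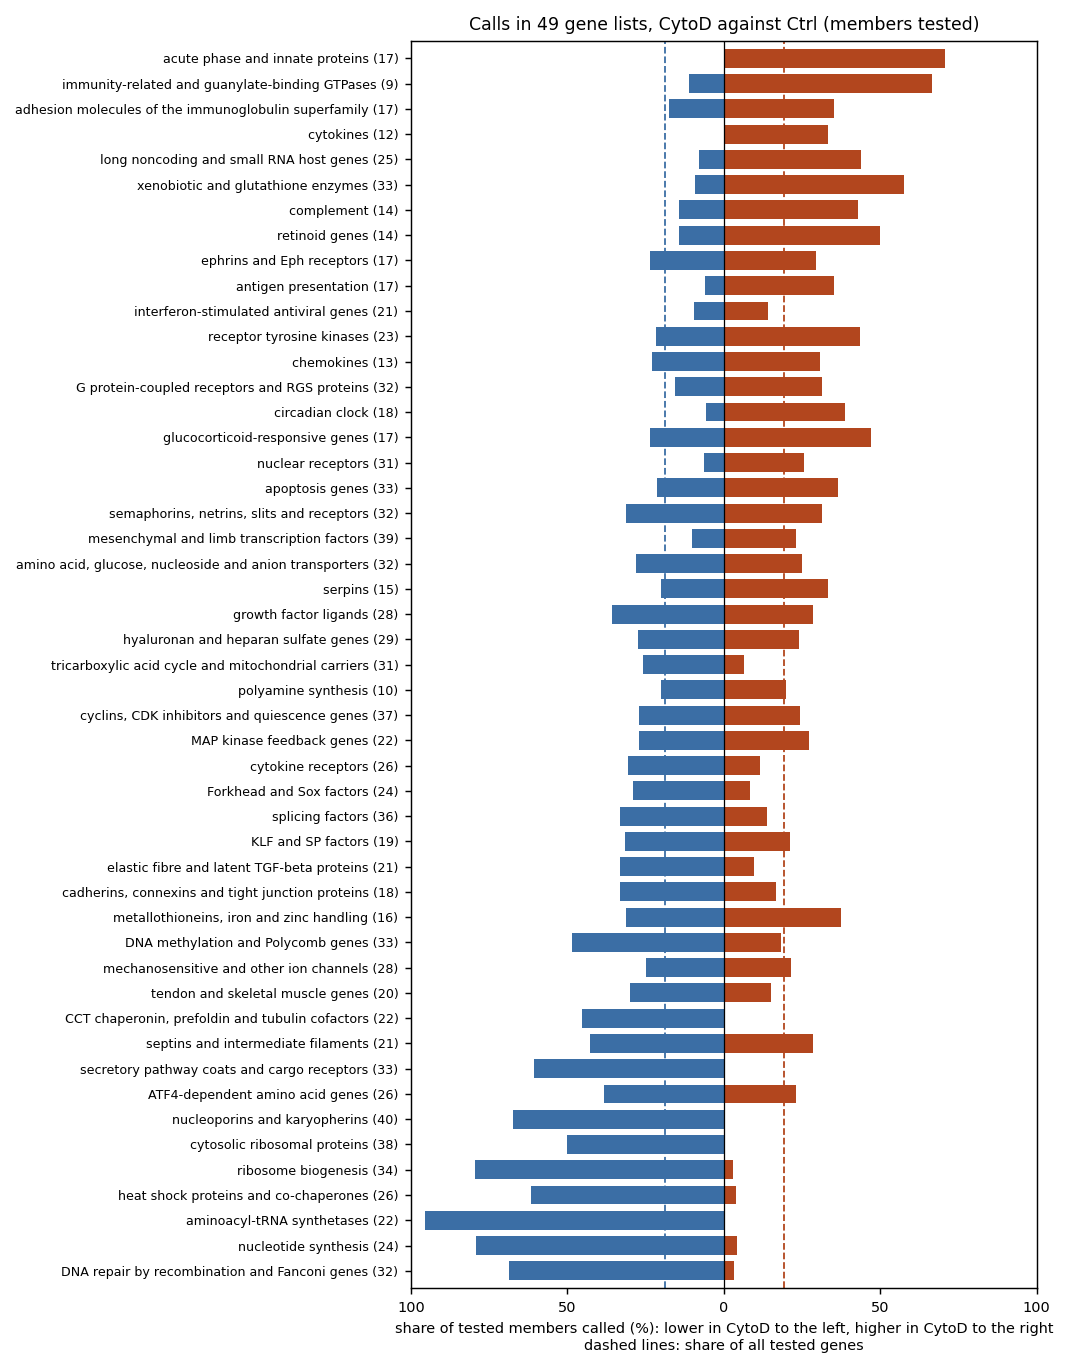
Percent of the tested members of each of 49 gene lists that were called higher in CytoD than in Ctrl (to the right) or lower (to the left). Dashed lines at 19.1% and 18.9% are the shares over all 13534 genes, not matched for level. The list of aminoacyl-tRNA synthetases has no higher member, and that of acute phase proteins no lower one.

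Transcripts for the machinery that makes proteins were lower across its parts. Aminoacyl-tRNA synthetases load each amino acid onto its tRNA. Of 22 tested, 21 fell and none rose. Their median log2 fold change was -0.39, beside 0.02 over all genes and -0.09 in the bin of highest level. Gars (chromosome 6, 55038001 to 55079504), which charges glycine, had 129, 125 and 124 CPM in CytoD and 192, 204 and 207 CPM in Ctrl. Every treated library lay below every untreated one, by 1.6-fold (log2 fold change -0.68 ± 0.08 SE, n = 3 libraries each; edgeR adjusted p = 5.21e-05). Cars, for cysteine, had 24.5, 26 and 24.6 CPM in CytoD and 39.5, 42.5 and 43.6 CPM in Ctrl. Tars, for threonine, fell 1.47-fold and Aars, for alanine, 1.38-fold. Over the whole list the log2 fold change ran from -0.74 to -0.19, so the enzymes for different amino acids fell by similar small amounts.

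Genes of ribosome assembly moved in the same direction, with 27 of 34 tested members lower and 1 higher and a median of -0.32. The 1 higher call was lost without CytoD replicate 2, CytoD replicate 3, Ctrl replicate 2 or Ctrl replicate 3, where 0 were higher. Fbl, the methyltransferase of box C/D particles that modifies ribosomal RNA, had 33.7, 30.1 and 31.3 CPM in CytoD and 49.2, 52.1 and 56.7 CPM in Ctrl, a 1.66-fold fall. Its partner Nop56 had 42.2, 37.7 and 39 CPM in CytoD and 59.4, 65.8 and 67.1 CPM in Ctrl. The cytosolic ribosomal proteins had 19 lower and 0 higher of 38 tested, with a median of -0.31. Rps2 of the small subunit fell 1.58-fold and Rpsa 1.56-fold. The count of lower ribosomal proteins depended on single libraries, being 9 without CytoD replicate 2, 10 without CytoD replicate 3 and 11 without Ctrl replicate 3, against 34 when only the CytoD and Ctrl libraries were fitted.

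ATF4, a transcription factor made when amino acids run short or the endoplasmic reticulum is stressed, drives genes of amino acid synthesis and uptake. Its 26 tested targets divided, with 10 lower and 6 higher. Psat1 of the serine pathway had 56.1, 45.1 and 46.1 CPM in CytoD and 102, 109 and 110.4 CPM in Ctrl, and the mitochondrial folate enzyme Mthfd2 had 11.3, 11.4 and 11.9 CPM in CytoD and 23.1, 26 and 27.4 CPM in Ctrl. Both were more than 2-fold lower in treated cells. Slc7a5, the large neutral amino acid transporter, fell 2.06-fold and Asns, which makes asparagine, 1.44-fold. Trib3, a pseudokinase that feeds back on this response, went the other way with 9.33, 10.6 and 9.28 CPM in CytoD and 3.42, 4.86 and 4.66 CPM in Ctrl. Sesn2, a leucine sensor that restrains mTORC1, rose 1.61-fold, and Chac1, which degrades glutathione, had a log2 fold change of 0.35 ± 0.19 SE and did not pass (edgeR adjusted p = 0.172). Psat1, Mthfd2, Slc7a5 and Asns thus fell while Trib3 and Sesn2 rose.

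ATF4 binds the amino acid response element, TGATGNAA. The 250 bases before the start of the gene were read on both strands in RefSeq's promoters of build GRCm38.p6. The element stood in 1134 of all 32851 promoters (3.45%) and in 5 of the 23 ATF4 targets with a promoter in that table (21.7%). All promoters here include those of genes not tested. A gene can be listed as an ATF4 target because it holds this element, so the higher share is no finding about these data. Of the 22 tRNA synthetases only 15 had a promoter there, which is too few for a share, and 3 of those 15 held the element. Of the 5 ATF4 targets with the element 2 fell and 3 were not called, and the 3 synthetases with it all fell. The 3 sequences below were picked from the genes that fell, with the element in capitals, and are shown 5′ to 3′ on the strand of the gene. They cover chr6:55037751-55038000 on the plus strand for Gars, chr15:11399659-11399908 on the minus strand for Tars and chr6:7693210-7693459 on the minus strand for Asns. In Gars the element began 30 bases before the gene, in Tars 15 and in Asns 23. A match is a string of letters and not a site shown to be bound.
Gars: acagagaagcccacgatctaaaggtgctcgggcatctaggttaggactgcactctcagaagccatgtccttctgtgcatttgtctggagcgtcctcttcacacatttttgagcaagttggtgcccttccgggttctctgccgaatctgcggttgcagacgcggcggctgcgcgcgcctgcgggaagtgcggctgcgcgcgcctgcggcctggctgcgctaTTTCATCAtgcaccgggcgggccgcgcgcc
Tars: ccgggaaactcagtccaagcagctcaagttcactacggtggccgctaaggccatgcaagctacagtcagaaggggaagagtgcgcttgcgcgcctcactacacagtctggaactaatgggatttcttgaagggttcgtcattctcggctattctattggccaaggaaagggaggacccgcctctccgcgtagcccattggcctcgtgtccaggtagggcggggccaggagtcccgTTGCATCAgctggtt
Asns: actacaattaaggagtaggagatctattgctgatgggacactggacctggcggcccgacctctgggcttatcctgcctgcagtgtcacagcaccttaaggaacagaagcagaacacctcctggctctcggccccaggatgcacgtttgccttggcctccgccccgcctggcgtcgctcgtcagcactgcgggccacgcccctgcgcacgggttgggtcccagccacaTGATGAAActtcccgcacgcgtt

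Transcripts of genes for transport through nuclear pores, secretion and folding were also lower in many cases. Of 40 nucleoporins and transport receptors 27 fell and none rose, with a median of -0.28. Kpna2, an importin alpha, had 57.7, 54.1 and 51.3 CPM in CytoD and 106, 130.5 and 125 CPM in Ctrl, a 2.22-fold fall, and Ipo5, which imports ribosomal proteins and histones, fell 1.66-fold. Of 33 secretory pathway coats and cargo receptors 20 fell and none rose. Creb3l1, a membrane-bound transcription factor that raises secretory capacity for collagen, had 102, 97.7 and 84.4 CPM in CytoD and 171, 179.9 and 174 CPM in Ctrl. Sec24d, the COPII coat subunit used by large cargo, fell 1.58-fold and the retrieval receptor Kdelr3 1.55-fold. In none of these genes did the groups overlap. Among chaperones, 10 of 22 genes of the CCT ring and its cofactors, which fold actin and tubulin, were lower and none higher. Tcp1 fell 1.37-fold and Cct8 1.33-fold. Of 26 heat shock proteins 16 fell and 1 rose, and that call was lost without CytoD replicate 3, Ctrl replicate 1 or Ctrl replicate 3, where 0 were higher. Hspb1, a small heat shock protein that binds actin, had 5.76, 6.24 and 4.73 CPM in CytoD and 9.2, 12.7 and 13.6 CPM in Ctrl.

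Genes of chromatin copying and DNA repair were lower by larger factors. Of 33 genes of DNA methylation and Polycomb complexes 16 fell and 6 rose. Uhrf1 (chromosome 17, 56303337 to 56323486), which brings the maintenance methyltransferase to newly copied DNA, had 25.8, 20.5 and 19.2 CPM in CytoD and 59.8, 68.3 and 71.1 CPM in Ctrl. It fell 3.04-fold (log2 fold change -1.60 ± 0.11 SE, n = 3 libraries each; edgeR adjusted p = 8.14e-07). Hells, a remodeller needed for methylation, had 9.37, 7.01 and 7.51 CPM in CytoD and 20.4, 23.8 and 22 CPM in Ctrl, and Dnmt1, the maintenance methyltransferase itself, fell 1.95-fold. The enzymes that oxidise methylcytosine went up instead. Tet1 had 3.49, 4.73 and 4.66 CPM in CytoD and 1.34, 1.99 and 1.5 CPM in Ctrl, and Tet2 had 14.3, 18.6 and 16.3 CPM in CytoD and 8.14, 8.97 and 6.95 CPM in Ctrl. The Polycomb reader Cbx7 rose 1.83-fold. In no case did a treated library overlap an untreated one.

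Of 32 genes of recombination repair and the Fanconi pathway 22 fell and 1 rose, with a median of -0.72, the lowest of all 50 lists. The 1 higher call was lost without CytoD replicate 1, CytoD replicate 3, Ctrl replicate 1 or Ctrl replicate 2, where 0 were higher. The exonuclease Exo1 had 2.67, 2.68 and 2.35 CPM in CytoD and 7.29, 8.33 and 9.28 CPM in Ctrl, and Fanca, of the Fanconi core complex, had 3.04, 3.12 and 2.49 CPM in CytoD and 7.94, 10.7 and 9.36 CPM in Ctrl. Both fell 3.23-fold. Bard1 fell 1.9-fold and the checkpoint kinase Chek2 1.73-fold. Nucleotide synthesis followed, with 19 of 24 genes lower and 1 higher, and with 0 higher without any 1 of CytoD replicates 1, 2 and 3 or of Ctrl replicates 2 and 3. Tk1, thymidine kinase, had 26.8, 21.7 and 23.7 CPM in CytoD and 43.5, 47 and 55.9 CPM in Ctrl. Dut, which removes dUTP, fell 1.78-fold and Dck, deoxycytidine kinase, 1.86-fold.

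Cell-cycle regulators were mixed: of 37 cyclins, inhibitors and quiescence genes 10 fell and 9 rose. The 2 atypical repressors of the E2F family had the largest falls. E2f7 (chromosome 10, 110745465 to 110787384) had 4.48, 3.83 and 3.47 CPM in CytoD and 12.5, 15.6 and 14.6 CPM in Ctrl, a 3.63-fold fall (edgeR adjusted p = 9.99e-07), and E2f8 had 3.29, 2.72 and 2.38 CPM in CytoD and 9.37, 11.9 and 12 CPM in Ctrl. Cyclin E1, Ccne1, fell 2.2-fold. The inhibitor Cdkn1a rose 1.62-fold, with 324, 368 and 358 CPM in CytoD and 208, 219 and 223 CPM in Ctrl. Cyclin D1, Ccnd1, had 648, 578 and 609.5 CPM in CytoD and 642, 633 and 660.0 CPM in Ctrl and was not called. The higher count of this list was fragile: 3 remained called without CytoD replicate 2, 2 without CytoD replicate 3, 4 without Ctrl replicate 1, 4 without Ctrl replicate 2 and 3 without Ctrl replicate 3, against 14 when only the CytoD and Ctrl libraries were fitted.

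E2F factors bind TTTCCCGC and TTTGGCGC. Either string, on either strand and within 250 bases before the gene, was in 427 of the 32851 promoters (1.3%). Those promoters include ones of genes not tested. The motif was in 4 of 31 promoters of the cyclin list (12.9%) and in 2 of 31 of the DNA methylation and Polycomb list (6.45%). For the repair list 25 of 32 members had a promoter in the table, too few for a share. Splicing factors held the motif as often as the cyclin list, in 4 of 31 promoters. Antigen presentation, with 6 genes higher and 1 lower, held it in 2 of 14 (14.3%). Of the genes with the motif 2 of 4 were lower in the cyclin list, 1 of 2 in the methylation list and 3 of 4 in the repair list, and the others were not called. The sequences below were picked from the lower genes, 1 of each group, at chr10:110745189-110745438 on the plus strand for E2f7, chr19:38930740-38930989 on the plus strand for Hells and chr1:71102973-71103222 on the minus strand for Bard1 (GRCm38.p6, RefSeq). Capitals mark the motif, which began 198, 62 and 209 bases before the gene in that order.
E2f7: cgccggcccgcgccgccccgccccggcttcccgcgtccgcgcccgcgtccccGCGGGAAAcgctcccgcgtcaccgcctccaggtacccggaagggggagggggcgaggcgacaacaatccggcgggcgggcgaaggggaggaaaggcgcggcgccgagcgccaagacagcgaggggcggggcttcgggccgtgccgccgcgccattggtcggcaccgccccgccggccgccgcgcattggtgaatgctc
Hells: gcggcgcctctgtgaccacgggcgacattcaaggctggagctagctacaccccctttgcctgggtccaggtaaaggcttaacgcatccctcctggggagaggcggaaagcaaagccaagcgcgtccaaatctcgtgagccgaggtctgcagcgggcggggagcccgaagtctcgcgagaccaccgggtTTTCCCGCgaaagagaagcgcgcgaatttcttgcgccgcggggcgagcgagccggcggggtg
Bard1: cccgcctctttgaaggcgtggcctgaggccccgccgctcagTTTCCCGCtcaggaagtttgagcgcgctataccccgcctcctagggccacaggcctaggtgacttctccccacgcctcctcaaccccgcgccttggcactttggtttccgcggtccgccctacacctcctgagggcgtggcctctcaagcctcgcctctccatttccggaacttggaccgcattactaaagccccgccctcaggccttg

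Genes of innate defence were higher in many cases. Acute phase and innate proteins are secreted by liver and stroma in inflammation and bind microbes, iron or proteases. Of 17 tested, 12 rose and none fell, with a median log2 fold change of 1.32, the highest of the 50 lists. Serpina3g (chromosome 12, 104214544 to 104241934), a protease inhibitor, had 37.7, 34.3 and 33.1 CPM in CytoD and 8.39, 5.75 and 6.42 CPM in Ctrl. It rose 5.11-fold (log2 fold change 2.35 ± 0.12 SE, n = 3 libraries each; edgeR adjusted p = 8.42e-08), but its row overlaps that of its paralog Serpina3f, so reads could be shared between them. Lbp, which carries bacterial lipopolysaccharide, had 35.8, 28.1 and 25.9 CPM in CytoD and 17.5, 8.75 and 9.77 CPM in Ctrl. Lcn2, which captures bacterial iron carriers, had 1.23, 1.44 and 1.08 CPM in CytoD and 0.326, 0.211 and 0.301 CPM in Ctrl. Among the members that did not pass was Slpi, a secreted inhibitor of leukocyte proteases, with 5.47, 4.33 and 4.19 CPM in CytoD and 4.03, 4.14 and 4.55 CPM in Ctrl.

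Of 14 tested complement genes 6 rose and 2 fell. C3, the protein on which all complement routes meet, had 28, 28.5 and 24.4 CPM in CytoD and 8.27, 7.65 and 8.15 CPM in Ctrl, a 3.36-fold gain. C4b had 2.51, 2.11 and 1.88 CPM in CytoD and 0.285, 0.169 and 0.263 CPM in Ctrl. The initiating protease C1s rose 1.88-fold. Components of an early and a central step of the cascade thus rose. The 2 lower genes, Cd59a and Masp1, were the least stable, with 1 lower call left without any 1 of CytoD replicates 1, 2 and 3 or of Ctrl replicates 1 and 2.

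Immunity-related and guanylate-binding GTPases, which cells make under interferon gamma to attack vacuoles of pathogens, had 6 of 9 members higher and 1 lower. Gbp3 had 1.81, 1.95 and 1.34 CPM in CytoD and 0.448, 0.211 and 0.263 CPM in Ctrl, and Gbp6 had 0.493, 0.436 and 0.614 CPM in CytoD and 0.0814, 0.0846 and 0.0751 CPM in Ctrl. Gbp genes are near-identical copies in part, so their counts are uncertain between members. Irgm1, the regulatory GTPase of the family, fell 1.82-fold, with 26.2, 24 and 22.7 CPM in CytoD and 42.6, 44.4 and 45.9 CPM in Ctrl. Antigen presentation had 6 of 17 genes higher and 1 lower, and its share called, 41.2%, was near the 37.9% over all genes. Nlrc5, the activator of MHC class I genes, had 24.1, 25.4 and 26.2 CPM in CytoD and 12.5, 15 and 12.2 CPM in Ctrl. The peptide transporter subunit Tap1 rose 1.48-fold and beta-2 microglobulin, B2m, 1.4-fold.

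The antiviral genes driven by type I interferon did not move as a group. Of 21 tested, 3 were called higher and 2 lower. Isg15, a ubiquitin-like modifier, had 2.01, 0.94 and 1.37 CPM in CytoD and 1.51, 0.55 and 0.601 CPM in Ctrl, and Ifit1 had 0.863, 0.604 and 0.542 CPM in CytoD and 0.774, 0.296 and 0.564 CPM in Ctrl. Neither was called, but without Ctrl replicate 1 the edgeR adjusted p was 0.0401 for Isg15. The 5 calls were not stable, since 0 were higher without CytoD replicate 1, CytoD replicate 3, Ctrl replicate 2 or Ctrl replicate 3, and 5 were higher without Ctrl replicate 1. The lower calls numbered 0 without CytoD replicate 2, CytoD replicate 3, Ctrl replicate 1 or Ctrl replicate 3 and 1 without CytoD replicate 1 or Ctrl replicate 2.

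Secreted signals of immunity were divided. Of 13 tested chemokines 4 rose and 3 fell. Cxcl14 had 5.92, 8.22 and 8.16 CPM in CytoD and 1.3, 1.31 and 1.39 CPM in Ctrl, a 5.57-fold gain, and Cxcl1, which draws neutrophils, had 14.2, 14.3 and 12.7 CPM in CytoD and 4.07, 2.92 and 3.23 CPM in Ctrl. The membrane-bound Cx3cl1 had 60.6, 46.5 and 45.4 CPM in CytoD and 119, 106 and 102 CPM in Ctrl and the monocyte attractant Ccl2 fell 1.67-fold. In each of these 4 genes all treated libraries lay on 1 side of all untreated ones. Of 12 cytokines 4 rose and none fell, and the share called, 33.3%, was below the 37.9% over all genes. Il7, which marrow stroma supplies to developing B cells, had 6.7, 4.7 and 5.31 CPM in CytoD and 3.83, 3 and 2.78 CPM in Ctrl, and Il15, a growth signal for natural killer cells, rose 2.33-fold. Il6 had 0.206, 0.302 and 0.217 CPM in CytoD and 0.163, 0.254 and 0.376 CPM in Ctrl and was not called. Tlr4, the lipopolysaccharide receptor, rose 1.55-fold.

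Some ligands changed together with their own receptors. Receptor tyrosine kinases had 10 of 23 members higher and 5 lower, and growth factor ligands 8 of 28 higher and 10 lower. Kit (chromosome 5, 75574987 to 75656721), the receptor for stem cell factor, had 169, 180.2 and 181 CPM in CytoD and 30.7, 18.3 and 16.2 CPM in Ctrl. It rose 8.14-fold (log2 fold change 3.02 ± 0.23 SE, n = 3 libraries each; edgeR adjusted p = 1.60e-06). Its ligand Kitl (chromosome 10, 100015824 to 100100412), which marrow stroma presents to blood stem cells, had 848, 877 and 926 CPM in CytoD and 304, 247 and 233 CPM in Ctrl. It rose 3.38-fold (log2 fold change 1.76 ± 0.19 SE; edgeR adjusted p = 1.75e-05). Receptor and ligand were thus both far above all untreated libraries.

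Gas6 (chromosome 8, 13465374 to 13494535) is the bridging ligand of the receptors Tyro3, Axl and Mertk, through which cells take up dying cells and damp inflammation. It had 819, 989.6 and 954 CPM in CytoD and 329.6, 315 and 312 CPM in Ctrl, a 2.89-fold gain (log2 fold change 1.53 ± 0.08 SE, n = 3 libraries each; edgeR adjusted p = 1.17e-07). Axl (chromosome 7, 25756500 to 25788733) went the other way, with 437, 362 and 349 CPM in CytoD and 960.4, 1030.3 and 1055 CPM in Ctrl, a 2.65-fold fall. Mertk had 13.1, 15.7 and 15.4 CPM in CytoD and 9.41, 8.92 and 8.83 CPM in Ctrl, and Tyro3 had 12.7, 15 and 14.7 CPM in CytoD and 19.5, 22.4 and 22.1 CPM in Ctrl. The ligand and 1 receptor therefore rose while the other 2 receptors fell, and no treated library overlapped an untreated one in any of the 4 genes.

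In other cases a receptor and its ligands changed in opposite ways. Fgfr2, a receptor for fibroblast growth factors, had 286, 311 and 312 CPM in CytoD and 124, 124 and 121 CPM in Ctrl, while the ligand Fgf2 had 5.84, 6.44 and 5.02 CPM in CytoD and 11.9, 13.2 and 12.8 CPM in Ctrl. Pdgfra, a receptor for platelet-derived growth factors, rose 1.74-fold. Its ligand Pdgfb had 0.74, 0.604 and 0.361 CPM in CytoD and 1.63, 1.99 and 1.8 CPM in Ctrl, and the ligands Pdgfa and Pdgfc fell 1.56-fold and 1.61-fold. Fgfr2 and Pdgfra were thus higher, and the 4 ligands named with them lower, as examples picked from longer lists with calls in both directions. Hgf, a growth factor for epithelium, rose 2.04-fold, and Figf, which encodes VEGF-D, had 52.9, 53.4 and 57.1 CPM in CytoD and 26.9, 20.8 and 21 CPM in Ctrl. Hbegf, a ligand of the EGF receptor, had 5.1, 5.13 and 5.13 CPM in CytoD and 9.69, 12.9 and 11.4 CPM in Ctrl. Ret, the receptor for GDNF, fell 1.84-fold.

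**Figure D3:**
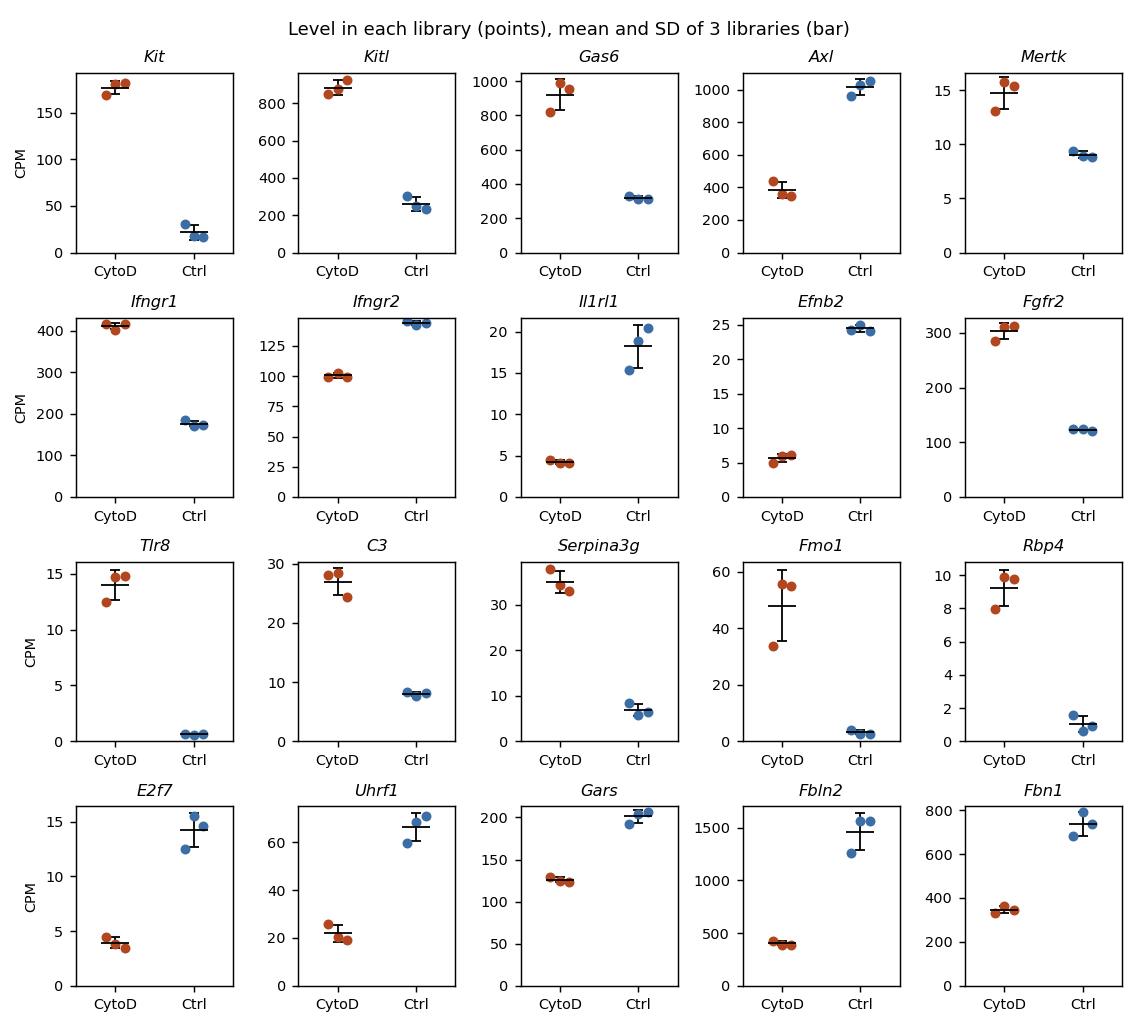
Level in CPM of 20 genes in the 3 CytoD libraries (left in each panel) and the 3 Ctrl libraries (right), on linear axes that start at 0. A point is 1 library and the bars give the mean and SD. Kit is between 169 and 181 CPM in CytoD and between 16.2 and 30.7 CPM in Ctrl. In no panel do the groups overlap, as in 5103 of the 5136 called genes.

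The chains of the interferon gamma receptor changed in opposite directions. Ifngr1, the ligand-binding chain, had 416, 403 and 416 CPM in CytoD and 185, 172 and 174 CPM in Ctrl, a 2.33-fold gain. Ifngr2, the signalling chain, had 99.5, 103 and 99.3 CPM in CytoD and 146, 142 and 144 CPM in Ctrl, a 1.43-fold fall. Both estimates had a small standard error (log2 fold change 1.22 ± 0.07 SE and -0.52 ± 0.06 SE). Among the 26 tested cytokine receptors 3 rose and 8 fell, with 7 higher when only the CytoD and Ctrl libraries were fitted. Il1rl1, the receptor for the alarmin interleukin-33, had 4.52, 4.09 and 4.12 CPM in CytoD and 15.3, 18.9 and 20.4 CPM in Ctrl, a 4.3-fold fall. Il13ra1 fell 2.85-fold, and the growth hormone receptor Ghr rose 1.7-fold. The common chain Il6st, shared by the interleukin-6 family, had 371, 366 and 363 CPM in CytoD and 377, 389 and 359 CPM in Ctrl and was not called.

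Feedback genes of MAP kinase signalling, which growth factor receptors induce to limit their own output, had 6 of 22 members higher and 6 lower. Spry1 had 269.8, 337 and 309 CPM in CytoD and 113, 97.5 and 95.4 CPM in Ctrl, a 2.99-fold gain, and the phosphatase Dusp4 had 42, 56.7 and 52.3 CPM in CytoD and 12.2, 15 and 14.7 CPM in Ctrl. Dusp5, a phosphatase of the same family, had 4.48, 6.81 and 5.27 CPM in CytoD and 12.1, 12.8 and 12.6 CPM in Ctrl. The factor Etv4 fell 2.06-fold and Errfi1, an inhibitor of the EGF receptor, 1.79-fold. Close relatives therefore moved apart, and Spry2 had 18.5, 25.4 and 22.7 CPM in CytoD and 20.6, 21.2 and 22.4 CPM in Ctrl with overlapping groups. The count of lower members was 3 without Ctrl replicate 2 and 3 without Ctrl replicate 3.

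G protein-coupled receptors and RGS proteins, which shut G protein signals off, had 10 of 32 members higher and 5 lower, or 8 lower when only the CytoD and Ctrl libraries were fitted and 8 without CK666 replicate 3. Ednra, an endothelin receptor, had 4.32, 7.58 and 6.86 CPM in CytoD and 1.67, 1.01 and 1.24 CPM in Ctrl. Rgs16 had 41.4, 65.2 and 57.9 CPM in CytoD and 12.9, 18.3 and 19.7 CPM in Ctrl, and Rgs2 rose 3.25-fold. S1pr2, a sphingosine-1-phosphate receptor, fell 1.61-fold, as did the nucleotide receptor P2ry2 by 2.03-fold. Ion channels had 6 of 28 members higher and 7 lower. Kcnk3, a background potassium channel, had 3.49, 5.13 and 5.78 CPM in CytoD and 0.448, 0.423 and 0.451 CPM in Ctrl, though its row overlaps that of Gm9899. Kcnma1, a calcium-activated potassium channel, had 3.37, 3.83 and 3.57 CPM in CytoD and 0.57, 0.254 and 0.376 CPM in Ctrl, and the pannexin Panx3 had 3.12, 3.79 and 3.39 CPM in CytoD and 0.448, 0.338 and 0.413 CPM in Ctrl. All 3 were at least 8-fold higher. The chloride channel Ano1 fell 3.39-fold and the cation channel Trpv2 2.4-fold, while Fam38a, the mechanically gated Piezo1, had 319, 343 and 318 CPM in CytoD and 339, 401 and 362 CPM in Ctrl and was not called (adjusted p = 0.188 in edgeR, and 0.0283 with only the CytoD and Ctrl libraries fitted).

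Genes for molecules by which cells find and hold their neighbours were called in both directions. Of 17 tested ephrins and Eph receptors 5 rose and 4 fell, with 3 higher without Ctrl replicate 1. Efnb2 (chromosome 8, 8617439 to 8660773), a membrane-bound ligand, had 4.97, 5.94 and 6.07 CPM in CytoD and 24.3, 25 and 24.2 CPM in Ctrl, a 4.32-fold fall (edgeR adjusted p = 3.14e-07). The receptor Epha7 had 3.12, 3.15 and 3.14 CPM in CytoD and 1.1, 0.761 and 0.714 CPM in Ctrl. Semaphorins, netrins, slits and their receptors had 10 of 32 members higher and 10 lower. The netrin receptor Unc5c had 2.43, 2.79 and 2.82 CPM in CytoD and 10.1, 10.3 and 11 CPM in Ctrl, and Sema3e fell 2.5-fold, whereas Sema6d had 35.6, 42.5 and 40.3 CPM in CytoD and 11.9, 15.7 and 12.7 CPM in Ctrl and the receptor Plxnb1 rose 2.59-fold. Without 1 library the lower count of this list was 6 (CytoD replicate 2), 5 (CytoD replicate 3), 5 (Ctrl replicate 2) or 6 (Ctrl replicate 3).

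Of 17 adhesion molecules of the immunoglobulin superfamily 6 rose and 3 fell, and 1 fell without any 1 of CytoD replicates 1, 2 and 3 or of Ctrl replicates 2 and 3. Nrcam, a neuronal adhesion molecule, had 12.5, 15.7 and 14.6 CPM in CytoD and 3.95, 3.55 and 3.34 CPM in Ctrl. Islr, which marks stromal progenitors, had 242, 343 and 359.7 CPM in CytoD and 81.7, 94.8 and 96.8 CPM in Ctrl, and Vcam1, to which blood cells bind on stroma, had 526, 477 and 478 CPM in CytoD and 267, 181 and 182 CPM in Ctrl. Each was more than 2-fold higher. Among 18 cadherins and junction genes 3 rose and 6 fell. The mesenchymal cadherin Cdh11 had 780.1, 884 and 876 CPM in CytoD and 481, 413 and 390.3 CPM in Ctrl, while Cdh2, N-cadherin, had 63.7, 66.8 and 67.4 CPM in CytoD and 103, 105 and 100.0 CPM in Ctrl. The gap junction protein Gja1 rose 1.89-fold. Fits with the replicate number as a block, with only the CytoD and Ctrl libraries or without CK666 replicate 3 called 5 members of this list higher.

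Transcripts of the other filament systems changed too. Of 21 septins and intermediate filament genes 6 rose and 9 fell. Vim, the vimentin of mesenchymal cells, had 3111, 2852 and 2936 CPM in CytoD and 5047, 4881 and 5223 CPM in Ctrl, a 1.7-fold fall. The desmosomal Pkp2 had 12.8, 14 and 14 CPM in CytoD and 43.2, 35.9 and 35.1 CPM in Ctrl, and the keratin Krt80 fell 5.44-fold. Desmin, Des, rose 1.35-fold, and the septin Sept4 had 2.75, 2.82 and 2.64 CPM in CytoD and 0.977, 1.06 and 0.939 CPM in Ctrl. Among regulators of small GTPases, Mcf2l, an exchange factor, had 2.55, 2.08 and 2.17 CPM in CytoD and 7.09, 6.94 and 7.14 CPM in Ctrl, and Ect2, which acts in cytokinesis, fell 2.48-fold. Net1, an exchange factor for RhoA, had 318, 328 and 336 CPM in CytoD and 187, 165 and 162 CPM in Ctrl, and Rhoa itself fell 1.33-fold, with 463, 433 and 455 CPM in CytoD and 589, 589.9 and 611 CPM in Ctrl.

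**Figure D4:**
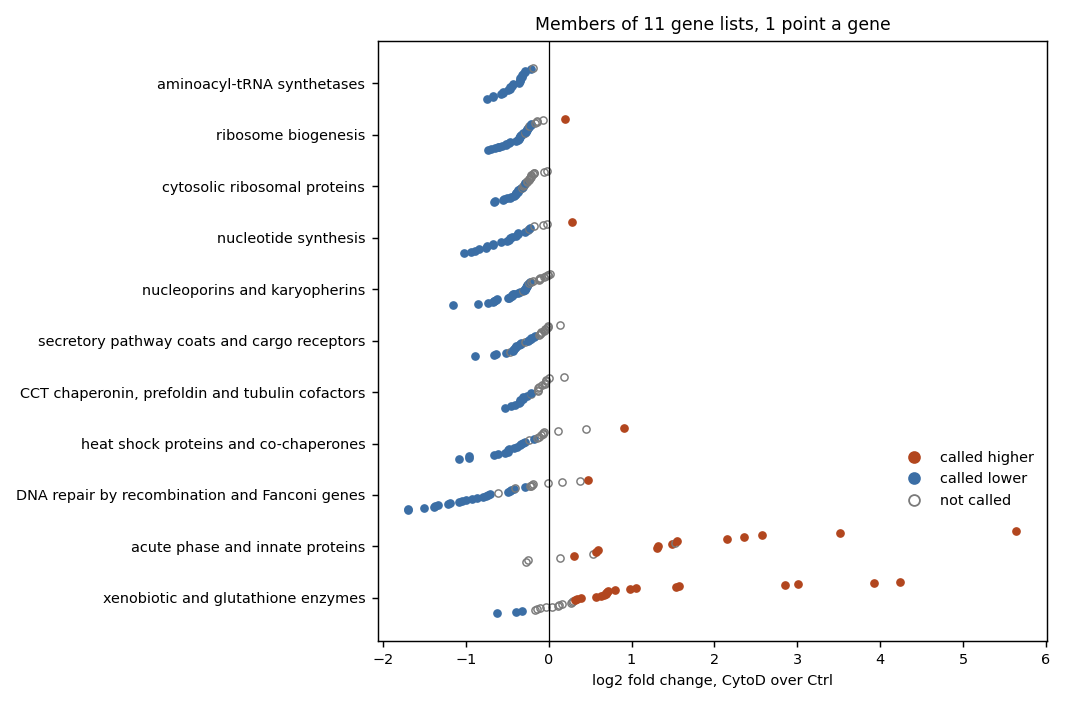
Log2 fold change of each tested member of 11 gene lists, CytoD minus Ctrl; 1 point is 1 gene, filled where it passed edgeR's test at an adjusted p under 0.05. The tRNA synthetases lie in a narrow band around a median of -0.39, and acute phase proteins are spread widely around 1.32.

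Beyond bone matrix, the elastic fibre list had 7 of 21 members lower and 2 higher, or 4 higher with the replicate number as a block and 4 with only the CytoD and Ctrl libraries fitted. Fbln2 (chromosome 6, 91212764 to 91272540), a fibulin that joins fibronectin and microfibrils, had 424, 391 and 389.9 CPM in CytoD and 1261, 1567 and 1563 CPM in Ctrl. It fell 3.64-fold (log2 fold change -1.87 ± 0.14 SE, n = 3 libraries each; edgeR adjusted p = 1.13e-06). Fbn1, the fibrillin of microfibrils, had 329, 364 and 347 CPM in CytoD and 684, 794 and 736 CPM in Ctrl. Of 15 serpins 5 rose and 3 fell. Of 29 hyaluronan and heparan sulfate genes 7 rose and 8 fell, with 4 higher without CytoD replicate 1, CytoD replicate 2, Ctrl replicate 2 or Ctrl replicate 3. Sulf1, which trims heparan sulfate, fell 2.73-fold, and Hs6st1, which adds sulfate at the same position, fell 2.07-fold.

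Enzymes of detoxification rose widely. Of 33 xenobiotic and glutathione enzymes 19 rose and 3 fell, with a median log2 fold change of 0.38. Fmo1 (chromosome 1, 162829561 to 162866548), a flavin monooxygenase, had 33.7, 55.7 and 54.9 CPM in CytoD and 3.99, 2.75 and 2.74 CPM in Ctrl. It rose 15.2-fold (log2 fold change 3.93 ± 0.39 SE, n = 3 libraries each; edgeR adjusted p = 9.54e-06). Adh1, an alcohol dehydrogenase that also oxidises retinol, had 3.33, 2.82 and 2.85 CPM in CytoD and 0.204, 0.507 and 0.526 CPM in Ctrl. The carboxylesterase Ces1d had 1.23, 1.44 and 1.23 CPM in CytoD and 0.122, 0.0423 and 0.0376 CPM in Ctrl, and belongs to a family of close paralogs between which counts can be split (log2 fold change 4.24, and 4.94 without Ctrl replicate 1). Mgst1, a microsomal glutathione transferase, had 680.0, 607 and 663 CPM in CytoD and 403, 346 and 374 CPM in Ctrl. Gains thus covered genes of oxidation, ester cleavage and conjugation. Gstp1, a cytosolic glutathione transferase, had 36.9, 32.9 and 30.9 CPM in CytoD and 38.6, 32.4 and 37.2 CPM in Ctrl and was not called.

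Retinoid genes had 7 of 14 members higher and 2 lower, with 4 higher without Ctrl replicate 3 and 1 lower without CytoD replicate 2. Rbp4 (chromosome 19, 38116620 to 38125321), the retinol carrier of plasma, had 7.98, 9.9 and 9.78 CPM in CytoD and 1.59, 0.634 and 0.902 CPM in Ctrl, a 8.84-fold gain. Rarres2, the chemoattractant chemerin, had 85.9, 74 and 81.1 CPM in CytoD and 17.9, 12 and 13.3 CPM in Ctrl. Both are also known from adipose tissue. Of 17 glucocorticoid-responsive genes 8 rose and 4 fell. Zbtb16 had 1.27, 2.11 and 1.84 CPM in CytoD and 0.0407, 0.127 and 0.113 CPM in Ctrl, and Hsd11b1, which regenerates active glucocorticoid inside cells, rose 2.6-fold. Fkbp5 had 22.1, 21.6 and 23.6 CPM in CytoD and 38.9, 41.9 and 40.3 CPM in Ctrl and Sgk1 had 29.4, 34.7 and 33 CPM in CytoD and 69.2, 77.9 and 77.7 CPM in Ctrl, so that these targets of the glucocorticoid receptor fell while Zbtb16, another of its targets, rose. Tsc22d3, which encodes the target GILZ, had 34.3, 38.2 and 36.8 CPM in CytoD and 40.5, 36.2 and 37.7 CPM in Ctrl and was not called.

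In iron and metal handling 6 of 16 genes rose and 5 fell, with 8 lower when only the CytoD and Ctrl libraries were fitted and 3 without CytoD replicate 2 or Ctrl replicate 3. 3 genes of iron export were higher. The exporter ferroportin, Slc40a1, had 35.5, 36.2 and 33.6 CPM in CytoD and 20.4, 18.4 and 17.1 CPM in Ctrl. Heph, a ferroxidase that works beside it, had 13.9, 15 and 15.4 CPM in CytoD and 3.95, 3.89 and 3.57 CPM in Ctrl, and Cp, the secreted ferroxidase ceruloplasmin, had 368, 342 and 360.3 CPM in CytoD and 166, 132 and 133 CPM in Ctrl. The endosomal ferrireductase Steap3, of the uptake route, fell 1.83-fold and the metallothionein Mt1 1.5-fold. Among 32 transporters 8 rose and 9 fell. Slc5a3, the importer of the osmolyte myo-inositol, had 540.0, 581 and 673 CPM in CytoD and 187, 205 and 182 CPM in Ctrl, though its row overlaps that of Mrps6. The phosphate importer Slc20a1 fell 2.09-fold.

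Transcription factors outside the fat and bone programmes are given as single examples, since 2 of their lists were called no more often than all genes. Nuclear receptors had 32.3% of members called and mesenchymal and limb factors 33.3%, beside 37.9% over all genes. KLF and SP factors had 52.6% called. Of 19 KLF and SP factors 4 rose and 6 fell. Klf4 had 14.1, 16.2 and 15.3 CPM in CytoD and 33.3, 35.3 and 35.4 CPM in Ctrl, and Klf2, its relative that responds to shear in endothelium, fell 1.63-fold, whereas Klf15, a regulator of amino acid breakdown, had 2.01, 2.32 and 2.42 CPM in CytoD and 0.733, 0.507 and 0.864 CPM in Ctrl. Of 31 nuclear receptors 8 rose and 2 fell, with 5 higher without CytoD replicate 2, CytoD replicate 3, Ctrl replicate 2 or Ctrl replicate 3 and 1 lower without any 1 of the 6 libraries. Nr1h3, the oxysterol receptor LXR alpha, had 62.9, 59.2 and 62.8 CPM in CytoD and 34.8, 30.8 and 32.6 CPM in Ctrl. The thyroid hormone receptor Thra had 162, 167 and 160.4 CPM in CytoD and 101, 95 and 103 CPM in Ctrl. Among 39 mesenchymal and limb factors 9 rose and 4 fell, or 7 lower when only the CytoD and Ctrl libraries were fitted. Ebf1 had 142, 141 and 144 CPM in CytoD and 82.1, 78.2 and 73.8 CPM in Ctrl and Zeb2 rose 1.87-fold, while Snai1, a repressor of epithelial genes, fell 1.74-fold. Of 18 clock genes 7 rose and 1 fell, the repressor Bhlhe40 with 29.4, 33 and 30.4 CPM in CytoD and 65.2, 79.6 and 78.9 CPM in Ctrl.

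Long noncoding RNAs and host genes of small RNAs had 11 of 25 members higher and 2 lower, with 1 lower without CytoD replicate 1, CytoD replicate 2, Ctrl replicate 1 or Ctrl replicate 3. Snhg5, a host of small nucleolar RNAs, had 16.6, 19.1 and 18.7 CPM in CytoD and 5.33, 5.67 and 6.42 CPM in Ctrl, a 3.12-fold gain. Neat1, the scaffold of paraspeckles, had 311, 297 and 295 CPM in CytoD and 198, 178 and 175 CPM in Ctrl. These noncoding transcripts rose in the libraries that also held more reads outside gene rows (12.4% to 13.7% in CytoD and 10.9% to 11.5% in Ctrl), whose part in the gains was not tested. Apoptosis genes had 12 of 33 members higher and 7 lower. Bcl2l11, which encodes the killer protein Bim and responds to loss of adhesion, had 43.1, 46 and 46.5 CPM in CytoD and 18.4, 17.5 and 16.1 CPM in Ctrl. Bmf, a related protein held at the cytoskeleton, had 54.5, 62.2 and 60.6 CPM in CytoD and 35.7, 32 and 33.1 CPM in Ctrl, and the inflammatory caspase Casp4 rose 2.47-fold. Bok fell 1.62-fold, and the survival gene Mcl1 had 154, 177 and 178 CPM in CytoD and 154, 156 and 162 CPM in Ctrl and was not called.

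Which of these changes separated cytochalasin D from the Arp2/3 inhibitor was asked with a direct contrast between the CytoD and CK666 libraries. It called 5380 genes (39.8% of those tested), with CytoD above CK666 in 2276 and below it in 3104. This contrast and that against Ctrl share the CytoD libraries, so their calls are not independent. Panx3 averaged 3.44 ± 0.336 CPM in CytoD, 0.498 ± 0.0569 CPM in CK666 and 0.4 ± 0.056 CPM in Ctrl (SD, n = 3 each), and was 6.92-fold above CK666 (edgeR adjusted p = 1.61e-06). Islr averaged 315 ± 63.4 CPM in CytoD, 59.6 ± 8.75 CPM in CK666 and 91.1 ± 8.22 CPM in Ctrl. Cp averaged 357 ± 13.5 CPM in CytoD, 96 ± 10.3 CPM in CK666 and 144 ± 19.7 CPM in Ctrl, and Vcam1 was 2.87-fold above CK666. The CK666 means of Islr and Cp were thus below their Ctrl means, and CK666 was not itself tested against Ctrl here. Nr4a3, an orphan nuclear receptor of low level, and Dock10, an exchange factor, were 11.2-fold and 4.6-fold above CK666.

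Other genes had means above Ctrl with either compound. Kit averaged 177 ± 6.91 CPM in CytoD, 89.6 ± 20.3 CPM in CK666 and 21.7 ± 7.88 CPM in Ctrl, and CytoD was 1.97-fold above CK666 (edgeR adjusted p = 0.00358). Kitl was 1.9-fold and Gas6 2.28-fold above CK666. For Tlr8 the means were 14 ± 1.33 CPM in CytoD, 13.2 ± 3.98 CPM in CK666 and 0.64 ± 0.0433 CPM in Ctrl, and the log2 difference between the compounds was 0.09 (edgeR adjusted p = 0.75). Serpina3g, C3, Nrcam, Rarres2 and Kcnma1 likewise gave no call between the compounds, with log2 differences of 0.16, -0.36, 0.09, -0.24 and -0.27 (CytoD minus CK666), which does not show that the compounds act alike on them. Axl was low with either compound, with 383 ± 47.5 CPM in CytoD, 481 ± 57.4 CPM in CK666 and 1015 ± 48.9 CPM in Ctrl and an edgeR adjusted p of 0.103 between the compounds. In some genes the mean with cytochalasin D lay between the other means, in either order. Thbs1 averaged 10412 ± 973 CPM in CytoD, 3037 ± 873 CPM in CK666 and 17356 ± 1492 CPM in Ctrl, and Fn1 was 1.56-fold above CK666 and below Ctrl. Pcx, pyruvate carboxylase, averaged 222 ± 13.8 CPM in CytoD, 499 ± 114 CPM in CK666 and 71.3 ± 2.58 CPM in Ctrl, though its row overlaps that of Lrfn4, and Ffar2 was 3.54-fold and B3galt2 4.27-fold lower in CytoD than in CK666. Doses of either compound are not given in the labels. The fit was sensitive to CK666 replicate 3. Without it 3339 genes were called higher and 3585 lower in CytoD than in Ctrl, against 2580 and 2556 with it.

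**Figure D5:**
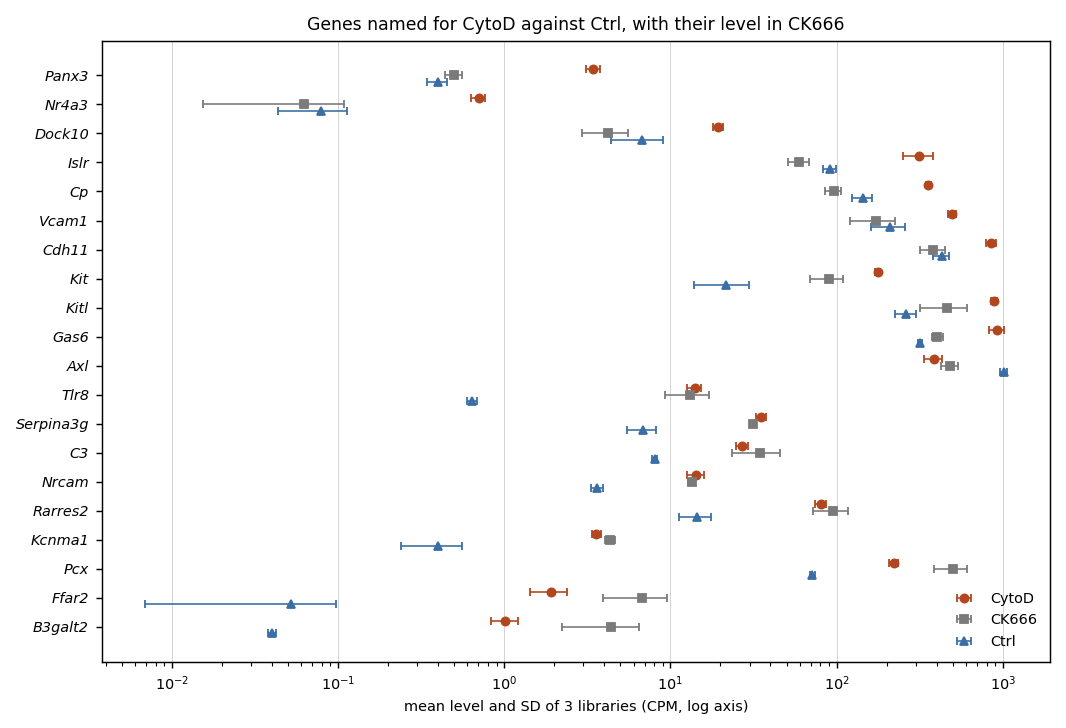
Mean level in CPM (log axis) with SD over 3 libraries of 20 genes in CytoD (circles), CK666 (squares) and Ctrl (triangles), 1 row a gene. The CytoD means of Panx3 and Islr are above both others, Tlr8 and Kcnma1 have like means with either compound, and Pcx, Ffar2 and B3galt2 are highest in CK666.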

How the data were processed

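Per the labels' protocols, total RNA was isolated with a column kit and libraries followed the standard Illumina protocol. The authors deposited raw counts per gene and RPKM values, which divide counts by gene length and depth. The submitters' processing notes list HTSeq, TopHat and CASAVA 1.9, and as build hg19, a human one, while the deposited coordinates are mouse ones. No source used here gives the counting strand or read layout. All counts are even. RPKM values served only to derive the reads outside gene rows. Floors of 3 counts cover counting error only.

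Counts were scaled by TMM and tested with edgeR 4.0.16 (limma 3.58.1, R 4.3.3) in a fit of the 4 groups of 3 libraries, after filterByExpr with a minimum count of 10, over 13534 of 23358 rows. A Benjamini-Hochberg adjusted p under 0.05 made a call, and the procedure was run on simulated data. It recovered 58.2% of 67 changes of 1.5-fold, 87.9% of 66 of 2-fold and 90.9% of 66 of 4-fold. Of 167 calls there, 10 were false. Far fewer genes were changed there than were called here, so the run does not test the scaling or error rate for these data. Of 1503 list entries 1500 were found, 23 under another symbol, and 1267 were tested. The lists and the genes described were chosen with earlier results of these data known. Genes were named by a rule: the largest changes, the largest gains and losses in CPM, up to 4 called members a list in each direction, members not called, and genes absent in 1 group. Genes named beside this rule after their values were seen are Aars, Asns, B2m, Bard1, Ccne1, Chek2, Dnmt1, Hgf, Lbp, Mertk, Mgst1, Neat1, Pdgfa, Pdgfc, Pdgfra, Rhoa, Tap1, Tars, Tlr4 and Vim. Rows overlapping another row made up 27.7% of those tested, among them Aars, B2m, Bhlhe40, Cct8, Cp, Fanca, Kdelr3, Krt80, Nop56, Rarres2, Tcp1 and Tk1, so their reads may be shared. Promoters matched 78.7% of tested symbols. Alternatives were RLE scaling, DESeq2 1.42.0, no filter, fewer libraries, a replicate block, halved counts and removal of Rn45s.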

Additional observations from a re-analysis of the deposited data

How the results depend on the processing

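The counts of higher and lower genes stayed within 1.5 times the reported ones in all 14 alternatives, as did the counts at 2-fold and those against CK666. Higher genes numbered 2551 with RLE scaling, 2746 with DESeq2, 2346 without a filter, 3666 with only the CytoD and Ctrl libraries, 2496 with halved counts, 2497 without Rn45s and 3339 without CK666 replicate 3, and lower genes 2594, 2754, 2437, 3678, 2582, 2612 and 3585 in that order. With the replicate number as a block, 2615 were higher and 2597 lower. Libraries with the same number did not deviate together, with correlations of 0.0462, -0.0383 and 0.0996 for numbers 1, 2 and 3, so the block was kept as an alternative. Of the 5136 called genes 3296 were called in the same direction in every alternative. Leaving out 1 library at a time gave 582 to 671 genes at least 2-fold higher, 424 to 505 at least 2-fold lower and 3905 to 5026 called against CK666. Among the named genes the sign turned only in genes that were not called: with 1 library left out, the log2 fold change ran from -0.0045 (Ctrl replicate 2) to 0.60 for Ifit1, from -0.39 to 0.21 (Ctrl replicate 3) for Il6 and from -0.053 (CytoD replicate 2) to 0.17 for Spry2. The cause was not tested. Isg15, not called, passed with the block (edgeR adjusted p = 0.04). The contrast with CK666 could not be made with only the CytoD and Ctrl libraries. Differences in genes under 3 counts, 0.0519 to 0.0613 CPM, were not detectable at this depth. Over 191 named genes and the alternatives, 2662 values kept direction and side of the threshold. A call was lost in 5 (Masp1 in 4 alternatives and Cd59a in 1) and gained in 3 (Isg15 in 2 and Fam38a in 1). Most of these genes were picked for large called changes, so their stability does not stand for that of all called genes. Over the list counts 1393 stayed within 1.5 times, 105 were smaller and 42 larger.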

Other observations

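Some gene groups fell outside the sequence of the results above. Among 24 tested Forkhead and Sox factors 2 rose and 7 fell, with 4 higher when only the CytoD and Ctrl libraries were fitted or without CK666 replicate 3. The share called, 37.5%, was near the 37.9% over all genes. Sox4, a factor of progenitor cells, had 155, 180.5 and 176 CPM in CytoD and 92.2, 89.7 and 89.1 CPM in Ctrl. Its relative Sox11 had 1.97, 2.08 and 1.7 CPM in CytoD and 3.09, 6.22 and 5.67 CPM in Ctrl, and Foxs1, a forkhead factor known from perivascular cells, had 12.6, 14.4 and 14.2 CPM in CytoD and 32.7, 35.6 and 36.1 CPM in Ctrl. Sox4 and Sox11 thus went in opposite directions, with no overlap of libraries. Among 36 splicing factors 12 fell and 5 rose, with 3 higher without CytoD replicate 2, CytoD replicate 3, Ctrl replicate 1 or Ctrl replicate 3 and 8 higher when only the CytoD and Ctrl libraries were fitted. The 2 cold-inducible RNA-binding proteins moved apart: Cirbp had 146, 134 and 138 CPM in CytoD and 93.5, 80.1 and 87.4 CPM in Ctrl, and Rbm3 had 503, 434 and 468 CPM in CytoD and 613, 634 and 678 CPM in Ctrl. Clk1, a kinase that acts on splicing factors, rose 1.45-fold.

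Calls were spread over the genome. The share of tested genes called higher lay between 15.4% on chromosome 4 and 23.5% on chromosome 10, and the share called lower between 15.4% on chromosome 16 and 21.4% on chromosome 4, over the 19 autosomes and chromosome X. None of the 7 tested genes on chromosome Y was called.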
